A study of Mchenga conophoros with 13 samples.

Results

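csf1r and cxcr4 are 2 of the 32471 genes counted in 13 spatial transcriptomic capture areas of the telencephalon of Mchenga conophoros, a Lake Malawi cichlid whose males build sand castles for courtship. They were followed by their names in the feature table of every matrix. Adult males (over 180 days old) that were building (2 males) and males labelled as not building (2 control males) were compared. No genotype or drug treatment separates these groups, and the study describes the males as size-matched pairs of a builder and a control. Coronal sections, 10 µm thick, lay on Visium slides, whose barcoded spots, 55 µm wide, each sample a patch of section in which several cells may lie. Building male 1 gave capture area C alone, while building male 2 and control males 1 and 2 gave areas A to D, so the level of its section and the animal itself cannot be told apart.

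Csf1r is the receptor tyrosine kinase for the cytokines Csf1 and Il34, and in mammals and zebrafish microglia and other macrophages depend on it for survival and for colonization of the brain. In zebrafish it is also used by yellow pigment cells. Zebrafish have a pair of copies of each receptor gene, with partly different roles, and the rows named csf1r and cxcr4 could not be assigned to a copy here, so a role known from one copy may not hold for the row. Cxcr4 is the G protein-coupled receptor for the chemokine Cxcl12, which steers migrating cells in vertebrate embryos. In adult brain it is known from immune cells, vessels, neural progenitors and some neurons. Neither receptor therefore marks a cell type by itself, and what shares their spots was read from marker lists of microglia, radial glia, vessels and other cells.

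The 13 areas held 6751 spots with at least 1 unique molecular identifier (UMI, a tag that counts an RNA molecule once) and 51779064 UMIs in all. There were 346 to 837 spots and 673104 to 7356317 UMIs per area, and the median spot held 1225.5 to 11973 UMIs. The shallowest library was area C of control male 1. Pairs of areas shared 0 to 404 spot barcodes, which mark slide positions. Sums over spots cannot separate fewer cells of a type from less RNA per cell.

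Both receptors were rare. csf1r had 427 UMIs in 378 spots (5.60% of spots), and at least 1 UMI in each of the 13 areas. 335 of its spots held 1 UMI, 39 held 2, 2 held 3 and 2 held 4. cxcr4 had 102 UMIs in 95 spots (1.41%), of which 89 held 1 UMI, and it was found in 11 of 13 areas. A spot without a UMI is thus not shown to lack the transcript. Spots with a csf1r UMI were deeper than the others (medians 8754 against 6568 UMIs), as were spots with a cxcr4 UMI (10080 against 6618).

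The level of csf1r, given as its UMIs for every 1000000 UMIs of the area (CPM), was 9.28 in the area of building male 1. In building male 2 it was 8.27 in area A, 7.89 in B, 8.16 in C and 6.59 in D. In control male 1 it was 11.8 in A, 6.23 in B, 13.4 in C and 7.09 in D. In control male 2 it was 5.08 in A, 9.52 in B, 6.99 in C and 9.97 in D. The highest value, in the shallow area C of control male 1, rests on 9 UMIs and has a 95% Poisson interval of 6.11 to 25.4, which covers the value of every other area but the lowest. Intervals here cover counting error only.

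cxcr4 stood lower in every area. Its level was 1.73 CPM in building male 1, and 2.26, 3.27, 2.18 and 1.36 in areas A to D of building male 2. In control male 1 it was 2.96, 1.25, 0 and 1.09, and in control male 2 it was 0, 2.38, 0.873 and 2.32. The areas at 0 allow up to 4.46 CPM (control male 1, area C) and 1.27 CPM (control male 2, area A), taking 3 UMIs as the limit that a count of 0 allows. These levels are per UMI and not per transcript length, so csf1r and cxcr4 are compared here only as counted.

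**Figure D1:**
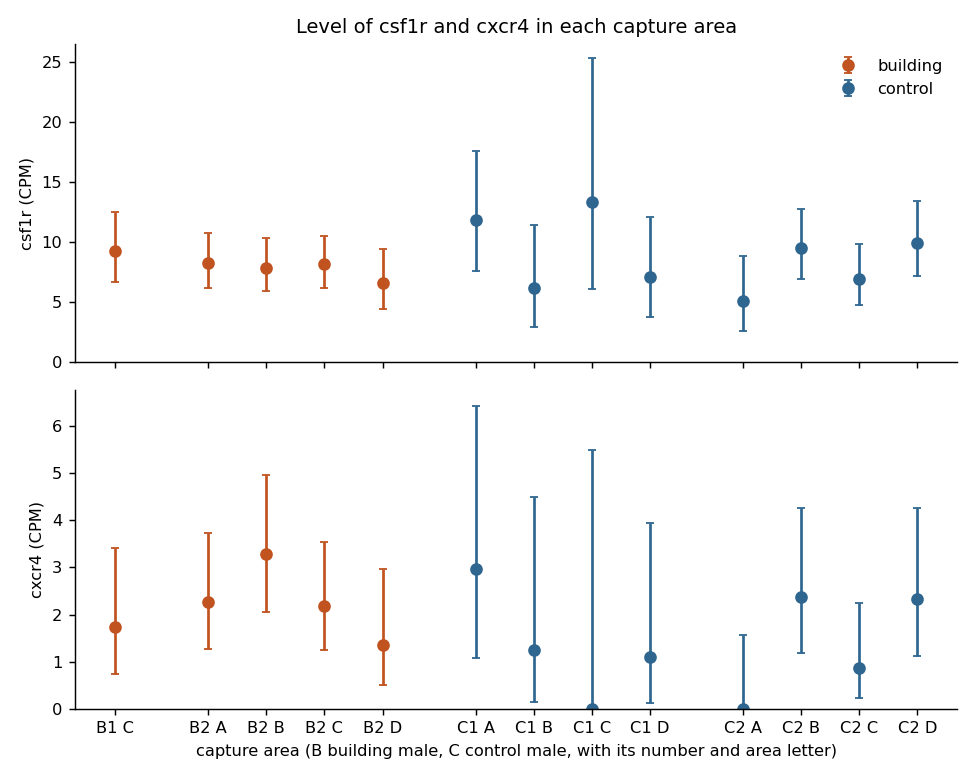
Level (CPM) of csf1r (top) and cxcr4 (bottom) in each of the 13 capture areas, with B for building and C for control males, their number and the area letter. Bars are 95% Poisson intervals. The csf1r points lie between 5.08 and 13.4 and those of cxcr4 between 0 and 3.27, with building and control areas overlapping for each receptor.

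Per male, csf1r was almost level. It was at 9.28 CPM in building male 1, 7.84 in building male 2, 9.12 in control male 1 and 8.25 in control male 2, a mean of 8.62 ± 0.689 (SD, n = 4). cxcr4 was at 1.73, 2.35, 1.63 and 1.58 CPM in the same order, a mean of 1.82 ± 0.358 (SD, n = 4). The share of spots with a csf1r UMI varied more, at 4.74%, 6.42%, 3.22% and 6.95%. After every spot of at least 2000 UMIs was thinned to 2000 (5945 spots), that share was 2.13%, 1.63%, 1.67% and 1.58%. For cxcr4 the share was 0.999%, 2.04%, 0.504% and 1.44%, and 0.569%, 0.606%, 0.294% and 0.506% after thinning.

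Within areas, csf1r counts did not keep pace with depth. Spots were ranked by total UMIs in each area and cut into 4 bins of equal size, and csf1r stood at 13.3 CPM in the shallowest bin, then 11.2, 7.70 and 6.17 in the deepest. The intervals of the shallowest (10.4 to 16.8) and the deepest bin (5.19 to 7.28) do not overlap. Each bin pools the spots of all males, so these intervals do not cover the spread between males, and the fall was not tested. cxcr4 was at 2.62, 1.36, 2.33 and 1.85 CPM over the same bins, with overlapping intervals.

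No difference between building and control males was detected for either receptor. csf1r averaged 8.56 ± 1.02 CPM in building and 8.68 ± 0.611 in control males (SD, n = 2 each), and the males of the groups overlapped. cxcr4 averaged 2.04 ± 0.440 against 1.60 ± 0.0376 CPM, with each building male above each control male. Counts summed per male and fitted over 15532 genes with edgeR's quasi-likelihood test gave a log2 ratio of building to control of -0.04 (SE 0.24, adjusted p = 1) for csf1r and 0.37 (SE 0.49, adjusted p = 1) for cxcr4. In that edgeR fit 0 genes were called at an adjusted p under 0.05 (0%), while 306 had an unadjusted p under 0.05 and DESeq2 called 17. The edgeR count was 74 without building male 1, 173 without building male 2 and 1 without control male 2, and neither receptor was called in any of these fits.

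The partners and relatives of the receptors gave no call between the groups either. Il34 is a ligand of Csf1r, and its row held 0 UMIs in all areas, as did LOC101476323, a row that the study's gene table names as another csf1r. The names csf1, cxcl12 and ackr3, with their a and b forms, matched no row in the name search, so those partners were not analysed here. Among relatives of Csf1r in the type III receptor kinases, kit had 1472 UMIs, pdgfrb 1073, pdgfra 277 and flt3 147. Of the other chemokine receptor rows, ackr4, a scavenger of chemokines, had 363 UMIs, ccr7 26 and cxcr5 3. cxcl14, a chemokine that binds Cxcr4 in mammals, had 997. mif, a cytokine that signals through Cd74 and Cxcr4, and cd74, the invariant chain of class II antigen presentation, had 22723 and 19783. In edgeR's building to control fit the log2 ratios of those that could be tested ran from -0.58 (kit, SE 0.31) to 0.54 (flt3, SE 0.70), each with an adjusted p of 1. Of 17 microglia and macrophage list genes tested, 0 were called, 8 lay above 0 and their median was -0.01, beside 50.3% of all genes above 0.

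The pallium and subpallium, the dorsal and ventral divisions of the telencephalon, were separated by excitatory and inhibitory marker lists that hold neither receptor. 2934 spots were classed as pallial, 2164 as subpallial, and 1653 fell in neither class. csf1r was at 8.10, 7.42, 6.60 and 8.48 CPM in pallial spots of building males 1 and 2 and control males 1 and 2, and at 7.20, 8.16, 8.28 and 7.53 CPM in their subpallial spots. The ranges of the classes overlap. In the fit with male as a block the pallial to subpallial log2 ratio of csf1r was -0.03 (SE 0.19, edgeR adjusted p = 0.945), in a comparison in which 23% of 13747 genes were called. No difference of this ratio between building and control males was detected by the interaction term (-0.04, SE 0.42, edgeR adjusted p = 1). Unclassed spots held 16.1, 8.40, 19.1 and 8.39 CPM of csf1r, higher than either class in building males 1 and 2 and control male 1. The median depth of unclassed spots was 3624, 5570, 1765 and 6262 UMIs in that order. The part of depth in that level was not tested.

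cxcr4 was higher in pallial than in subpallial spots of each male, but the difference did not pass. The pallial levels were 3.33, 2.67, 2.40 and 1.63 CPM (62 UMIs in all) and the subpallial levels 0.600, 1.96, 1.10 and 1.45 CPM (27 UMIs), in the order used above. The subpallial counts were 1, 19, 2 and 5 UMIs in that order. Those of building male 1 and control male 1 are thus fewer than the 3 UMIs taken above as the limit of a count of 0. Per male the log2 ratio was 1.99, 0.43, 0.89 and 0.08. cxcr4 missed the filter on low counts, and in the fit without that filter the log2 ratio was 0.69 (SE 0.43, edgeR adjusted p = 0.375, higher in 4 of 4 males). In the other fits that could test it, without building male 1, without control male 1 and with another split of spots by the same lists, its adjusted p ran from 0.282 to 0.499.

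kit and pdgfra, relatives of Csf1r, and cxcl14 differed by region, in the fit that called 23% of all genes. kit, a receptor of neurons and pigment cells, was higher in pallial spots (log2 ratio 2.72, SE 0.18, edgeR adjusted p = 2.25e-06). pdgfra, the receptor of oligodendrocyte precursors, was lower (-1.41, SE 0.27, adjusted p = 0.00381), and so was cxcl14 (-0.93, SE 0.21, adjusted p = 0.00866). The relatives pdgfrb, a receptor of pericytes, and flt3 were not called, at 0.06 (SE 0.14, edgeR adjusted p = 0.808) and 0.45 (SE 0.33, edgeR adjusted p = 0.394). Of 15 microglia list genes tested, 1 was higher (11.1% of all genes were) and 1 lower (11.9% were), with a median of -0.12. The higher gene was mafb (2.59, SE 0.18), which encodes a transcription factor of macrophages that some neurons use too, and the lower was apoeb (-0.27, SE 0.07, adjusted p = 0.0234). Without control male 2 the fit called 2018 genes in place of 3168.

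To ask which genes share spots with csf1r, each of the 378 spots with a csf1r UMI was paired with the spot of the same area nearest in depth that had none, and both sets were summed per male. 53 of 10273 genes were called at an edgeR adjusted p under 0.05 (0.516%), 46 higher (0.448%) and 7 lower (0.0681%) in csf1r spots, and 50 of the 53 had the same sign in all 4 males. apoeb, an apolipoprotein E gene that marks microglia in this study and in zebrafish, and cd74 were the 2 of 13 tested microglia list genes among them. fabp7 and id1, genes of radial glia, the neural stem cells of the fish telencephalon, were the 2 of 10 tested from that list. sp9, a transcription factor of subpallial inhibitory neurons, was lower.

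apoeb rose in csf1r spots of every male. It stood at 337 CPM in the matched spots and 1500 in the csf1r spots of building male 1, and at 584 and 972 in building male 2. In control male 1 these values were 536 and 1412, and in control male 2 they were 570 and 954. The csf1r spots of the 4 males, from 954 upwards, lay above all matched spots, whose highest value was 584. The log2 ratio was 1.13 (SE 0.12, edgeR adjusted p = 1.24e-06) and passed in 11 of 12 alternatives, with 0.55 when spots were paired within their own spot cluster.

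cd74 was at 362 CPM in matched and 788 in csf1r spots of building male 1, 290 and 545 in building male 2, 524 and 653 in control male 1, and 311 and 459 in control male 2. It was higher in csf1r spots of each male, although matched spots of control male 1 exceeded csf1r spots of control male 2. Its log2 ratio was 0.76 (SE 0.09, edgeR adjusted p = 5.27e-06), and it too passed in 11 of 12 alternatives, with 0.48 when paired within clusters. Both lost the call without the male as a block. Both apoeb and cd74 are abundant far beyond csf1r spots, with UMIs in 5686 and 5366 of all spots.

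The other microglia list genes were counted thinly. Of the 42 names on that list 20 matched a row, and c1qa, aif1, p2ry12 and trem2 were among the names without a match, so the list rests on part of the usual markers. 11 of the 13 tested lay above 0 (48.7% of all genes did), with a median log2 ratio of 0.76 beside -0.01 for all genes. The matched genes spi1, coro1a, runx1, tyrobp, mpeg1, csf3r and plek missed the filter on low counts and are outside that count. This filter used the sums of both sets of spots, so thin genes such as ptprc and mrc1 could pass through csf1r spots alone. The count above 0 and the median therefore depend partly on the filter. irf8, a transcription factor that macrophages need, was at 0.99 (SE 0.53), stab1, a scavenger receptor, at 0.99 (SE 0.37), ptprc, the leukocyte antigen CD45, at 0.93 (SE 0.47), and lcp1, the leukocyte plastin, at 0.84 (SE 0.40). None of these passed (edgeR adjusted p from 0.481 to 0.828). ptprc shows the levels per male behind such values, at 0 and 25.2 CPM in matched and csf1r spots of building male 1, 4.86 and 9.18 in building male 2, 11.8 and 35.4 in control male 1, and 7.84 and 6.25 in control male 2. hexb and grn, lysosomal genes that neurons share, stood at -0.05 and -0.02.

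Of radial glial genes, fabp7, the brain lipid-binding protein, rose from 597 to 784 CPM between matched and csf1r spots in building male 1, from 358 to 458 in building male 2, from 477 to 673 in control male 1 and from 410 to 681 in control male 2. Its log2 ratio was 0.53 (SE 0.08, edgeR adjusted p = 0.000139), and it passed in 10 of 12 alternatives but not in thinned spots (adjusted p = 0.408) or without the male as a block. Paired within clusters it was at 0.34. id1, a target of BMP signaling linked to glial quiescence in zebrafish, had a ratio of 0.59 (SE 0.11, edgeR adjusted p = 0.00469) and passed in 6 of 12 alternatives. It lost the call with DESeq2 (adjusted p = 0.163), without building male 2 (0.119), without control male 2 (0.0653) and without the male as a block, and was at 0.36 in thinned spots and 0.29 within clusters. 9 of 10 tested members lay above 0, with a median of 0.43, and gfap, hes1, her4.2 and the glutamate transporter slc1a3 were between 0.41 and 0.48 without passing.

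Of the other called genes, most of which carry a number in place of a symbol, the following were picked after their values were seen and stand for no list. slc1a2, a glutamate transporter of astroglia, had a log2 ratio of 0.39, and LOC101463785 and LOC101471677, which the study's tables name as glutamine synthetase, had 0.46 and 0.61. slc6a11, a GABA transporter, was at 0.53. slc3a2, a subunit of amino acid transporters, was at 0.48, and gpm6b, a proteolipid of glia and neurons, at 0.61. Of genes for secreted or matrix proteins, sparc was at 0.64, selenop, a selenium carrier, at 0.72, LOC101464395 (pleiotrophin in the study's tables) at 0.62, and srgn, a proteoglycan of immune cell granules, at 0.98. Each had the same sign in all 4 males. Of these 10 genes, selenop and LOC101463785 passed in 11 of 12 alternatives, while srgn passed in 4 and slc3a2 in 2. The thinned spots kept 15 and spots matched within their own spot cluster kept 17 of the 53 calls.

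Vessel, meningeal and oligodendrocyte genes did not pass in csf1r spots. 8 of 10 vessel and pericyte genes lay above 0, with a median of 0.29, led by kdr, an endothelial receptor (0.74, SE 0.37, edgeR adjusted p = 0.792). 5 of 5 meningeal and matrix genes lay above 0, with a median of 0.23. Of 9 oligodendrocyte lineage genes 7 did, with a median of 0.13. In that list mpz, a myelin gene of fish brain, was at 0.53 (adjusted p = 0.0661) and gpr17, a receptor of oligodendrocyte precursors, at 1.87 (SE 0.54, adjusted p = 0.173). gpr17 was thin, at 0, 4.323, 0 and 2.353 CPM in matched spots of building males 1 and 2 and control males 1 and 2. In their csf1r spots it was at 17.99, 12.97, 0 and 8.593 CPM. Such genes could pass the filter on low counts through csf1r spots alone. The counts above 0 and the medians of these lists therefore depend partly on the filter too. kit was at 0.87 (SE 0.21, adjusted p = 0.0602), and passed without the filter on low counts (0.85, adjusted p = 0.0303). Their part in the glial ratios was not tested.

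**Figure D2:**
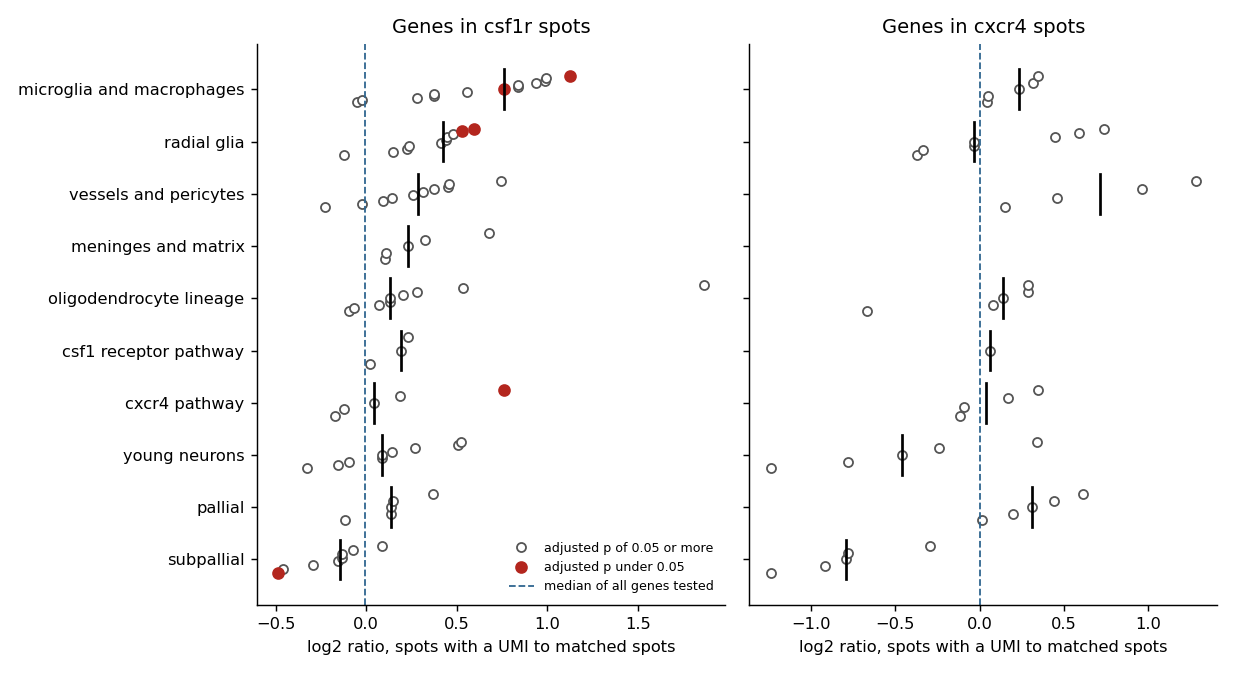
Log2 ratio of each tested list gene between spots with a UMI of csf1r (left) or cxcr4 (right) and depth-matched spots without. Filled points have an edgeR adjusted p under 0.05, short lines are list medians, and the dashed line is the median of all genes tested. In csf1r spots the microglia list has the highest median, 0.76, and in cxcr4 spots the subpallial list has the lowest, -0.79. Thinly counted genes could be tested through their level in spots with a UMI alone, so list medians depend partly on the filter.

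The 10 genes most like csf1r by this ratio were, besides apoeb, mostly rows that the sources used here do not name. LOC101480579 led at 4.18, but 2 spots held 81.8% of its UMIs in csf1r spots, and the ratio was -0.21 in the thinned spots. npff, which encodes a neuropeptide, was called at 3.82 without the same sign in every male, and 2 spots held 82.1% of its UMIs in csf1r spots. LOC101485530 followed at 1.81 (SE 0.27, edgeR adjusted p = 0.000179), from 1224 to 10480 CPM in building male 1 and from 1592 to 15480 in control male 1, yet from 3654 to 5126 in building male 2 and from 3508 to 5682 in control male 2. rbp4, the retinol carrier, had the same shape, with 47.1 and 367 CPM in matched and csf1r spots of building male 1, 63.0 and 692 in control male 1, 164 and 254 in building male 2, and 152 and 327 in control male 2 (log2 ratio 1.36).

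LOC106676021 (1.35), LOC101475711 (1.21), LOC101467020 (1.15) and LOC101478779 (1.06) were also several-fold higher in building male 1 and control male 1 and less so in the other males. Pairing within the spot cluster brought LOC101485530 to 0.46 and rbp4 to 0.40. LOC101482727 was at 1.53 (SE 0.34), on 78 UMIs in csf1r spots and 27 in matched spots. crh, the corticotropin-releasing hormone gene, was at 1.12 (SE 0.17), with 18.1 and 89.9 CPM in building male 1, 127 and 342 in building male 2, 7.88 and 27.5 in control male 1, and 70.6 and 79.7 in control male 2. Pairing within clusters left crh at 0.28, where it did not pass.

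**Figure D3:**
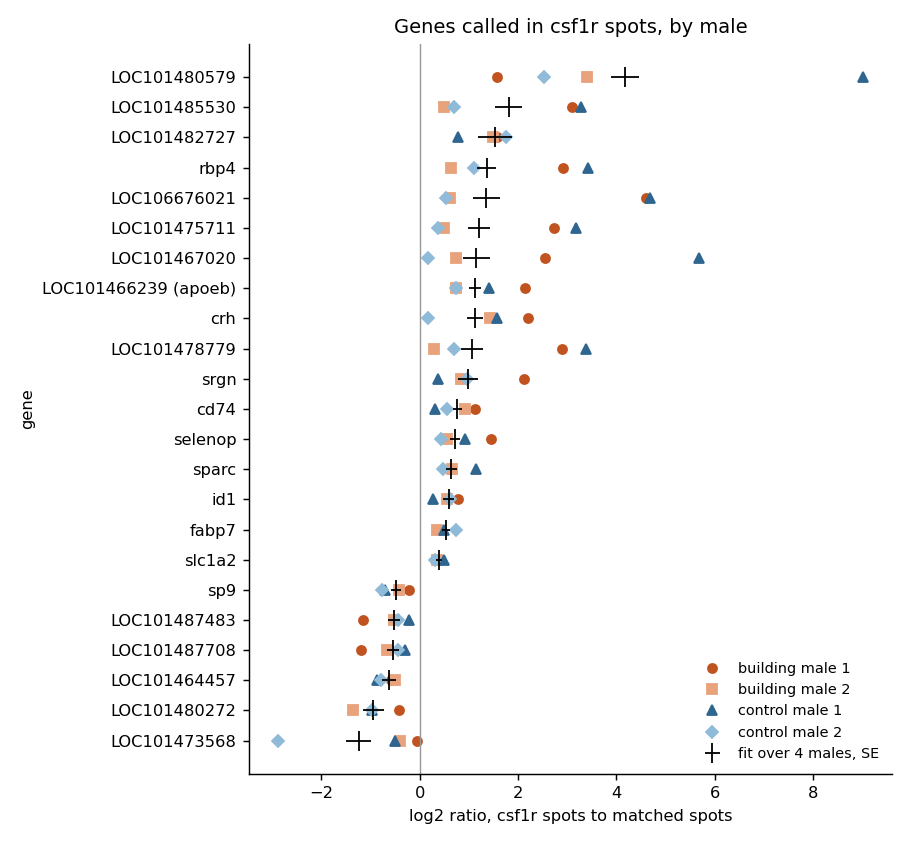
Log2 ratio between csf1r spots and matched spots in each male (colored points) and in the edgeR fit over 4 males (black cross, with its SE) for the 10 highest and 5 lowest called genes of the same sign in all males. Also shown are cd74, srgn, selenop, sparc, fabp7, id1, slc1a2 and sp9. apoeb, cd74 and fabp7 lie above 0 in each male, at 1.13, 0.76 and 0.53 in the fit, while LOC101480579 spreads from 1.58 to 9.02 between males.

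7 called genes were lower in csf1r spots, and sp9 was the one that stands on a marker list. sp9 was at 492 CPM in matched and 421 in csf1r spots of building male 1, 236 and 176 in building male 2, 244 and 150 in control male 1, and 184 and 107 in control male 2. Its log2 ratio was -0.48 (SE 0.10, edgeR adjusted p = 0.018), and it passed in 4 of 12 alternatives. The call was lost with DESeq2 (adjusted p = 0.187), without building male 2 (0.197), without control male 2 (0.452), with 3 matched spots (0.252), against all other spots (log2 ratio -0.19), in thinned spots, within clusters and without the male as a block. 7 of 8 tested subpallial genes lay below 0, with a median of -0.15. LOC101473568, named as the nociceptin precursor in the study's tables, had the lowest ratio at -1.24, of which control male 2 gave the largest share (232 against 31.3 CPM). Without that male it was at -0.32 (edgeR adjusted p = 0.997). LOC101480272 (-0.95), LOC101464457 (-0.63), LOC101487708 (-0.54) and LOC101487483 (-0.53) completed the 5 lowest, and LOC101487483 stood at 0.03 once pairs shared a cluster. Without the male as a block 0 genes were called, and leaving out building male 2, which holds 197 of the 427 csf1r UMIs, gave 33 calls among 5973 genes tested, 28 of them shared with the 53.

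The same pairing for the 95 spots with a cxcr4 UMI gave a thinner result. 5 of 5339 genes were called (0.0937%), each lower in cxcr4 spots, and 180 had an unadjusted p under 0.05. meis2, a transcription factor of ventral forebrain neurons among others, was at 335 CPM in matched and 268 in cxcr4 spots of building male 1, 262 and 117 in building male 2, 400 and 21.1 in control male 1, and 302 and 106 in control male 2, a log2 ratio of -1.26 (SE 0.25, edgeR adjusted p = 0.0407). Building male 1 and control male 1 had 8 cxcr4 spots and 8 matched spots each. Their meis2 values rest on 25 UMIs in matched and 20 in cxcr4 spots, and on 19 and 1, in that order. LOC101473051, named PCBP3 (an RNA-binding protein) in the study's tables, was at -1.56, and 2 spots held 54.2% of its 83 UMIs in cxcr4 spots. crh was at -1.60, and 2 spots held 56.8% of its 74 UMIs there. crh had 211 UMIs in matched and 69 in cxcr4 spots of building male 2. It had 3 and 0 in building male 1, 7 and 1 in control male 1, and 6 and 4 in control male 2. LOC101483654, at -2.09, had 65 UMIs in cxcr4 spots, 80.0% of them in 2 spots. It is a leading gene of a spot cluster described below, where it had 5183 UMIs. LOC106675072, at -2.16, lacked the same sign in all males.

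These calls hung on the males and the settings used. Leaving out control male 1 or control male 2 left 0 calls, leaving out building male 1 gave 9 and leaving out building male 2 gave 10. DESeq2, the thinned spots and the fit without male as a block each called 0, and 3 matched spots in place of 1 gave 50 calls, 26 of them higher, which included the 5.

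No list gene passed in cxcr4 spots. The 5 subpallial genes tested all lay below 0, with a median log2 ratio of -0.79, and included gad2, the GABA-synthesizing enzyme (-0.79, edgeR adjusted p = 0.169), dlx5 (-1.24, adjusted p = 0.125) and sp9 (-0.92, adjusted p = 0.22). The 5 pallial genes all lay above 0, with a median of 0.31. 4 of 4 vessel genes lay above 0, with a median of 0.71, among them rgs5a, a pericyte gene, at 0.96 (adjusted p = 0.536). rgs5a was at 93.8 CPM in matched and 67.0 in cxcr4 spots of building male 1, but at 37.5 and 89.6 in building male 2, 84.3 and 148 in control male 1, and 54.6 and 116 in control male 2. In building male 1 and control male 1 these values rest on 8 spots of each kind. The 5 microglia genes all lay above 0, with a median of 0.23, and 3 of 7 radial glial genes did. Beside these, 50.6% of all genes lay above 0. The limit that the filter sets on such counts, stated for csf1r spots, applies here too.

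Few spots held both receptors. 11 spots had a UMI of each, 367 had csf1r without cxcr4 and 84 had cxcr4 without csf1r. cxcr4 was found in 11 of 378 csf1r spots (2.91%, exact Clopper-Pearson 95% interval 1.46% to 5.15%) and in 3 of the 378 matched spots (0.794%, 0.164% to 2.30%). Building male 2 supplied 8 of the 11 and 0 of the 3, while control male 2 had 2 and 3. The fit without a filter gave cxcr4 a log2 ratio of 1.68 in csf1r spots (SE 1.19, edgeR adjusted p = 0.992). csf1r was found in 11 of 95 cxcr4 spots (11.6%, 5.92% to 19.8%) against 7 of 95 matched spots (7.37%, 3.01% to 14.6%), with a log2 ratio of 0.72 (SE 0.83, edgeR adjusted p = 1). A shared occurrence beyond depth was not detectable at these counts.

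Read the other way, from marker-rich spots to the receptors, both stood higher where microglia genes were dense. The same spots and list genes were used, apoeb and cd74 among them, so for csf1r this partly restates the paired result. In each area and depth bin the 10% of spots with the highest mean score over the 20 matched microglia list genes were taken (701 spots), which is a description without a test, chosen after the values above were known. csf1r was at 17.7 CPM there (92 UMIs) and at 7.19 CPM in the rest (335 UMIs). The log2 ratio was 1.61, 1.18, 1.79 and 1.18 in building males 1 and 2 and control males 1 and 2, a mean of 1.44 ± 0.308 (SD, n = 4). cxcr4 was at 4.80 CPM (25 UMIs) against 1.65 (77 UMIs), with log2 ratios of 0.79, 1.79, 1.98 and 1.27, a mean of 1.46 ± 0.538. Building male 1 and control male 1 had 8 and 10 cxcr4 UMIs in all. Their ratios, with 0.5 UMI added to both counts, therefore rest on few UMIs in the top 10% of spots.

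Radial glial and vessel lists gave more uneven values. In spots rich in radial glial genes csf1r was at 14.5 against 7.54 CPM (log2 ratio 1.01 ± 0.759, SD, n = 4, higher in 4 of 4 males), while cxcr4 had a ratio of 0.21 ± 0.783 and was the higher ratio in building male 2 (0.89 against 0.83) and control male 1 (0.45 against 0.16). In spots rich in vessel and pericyte genes cxcr4 was at 4.52 against 1.68 CPM (1.61 ± 0.715, higher in 4 of 4 males). There csf1r had a ratio of 0.46 ± 0.600, also above 0 in 4 of 4 males. In building male 1 the csf1r ratio was above that of cxcr4 (1.34 against 0.88), but that male had 8 cxcr4 UMIs in all. The difference between the receptors was not tested. In spots rich in subpallial genes cxcr4 had a ratio of -0.64 ± 0.744, with control male 2 at 0.39.

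**Figure D4:**
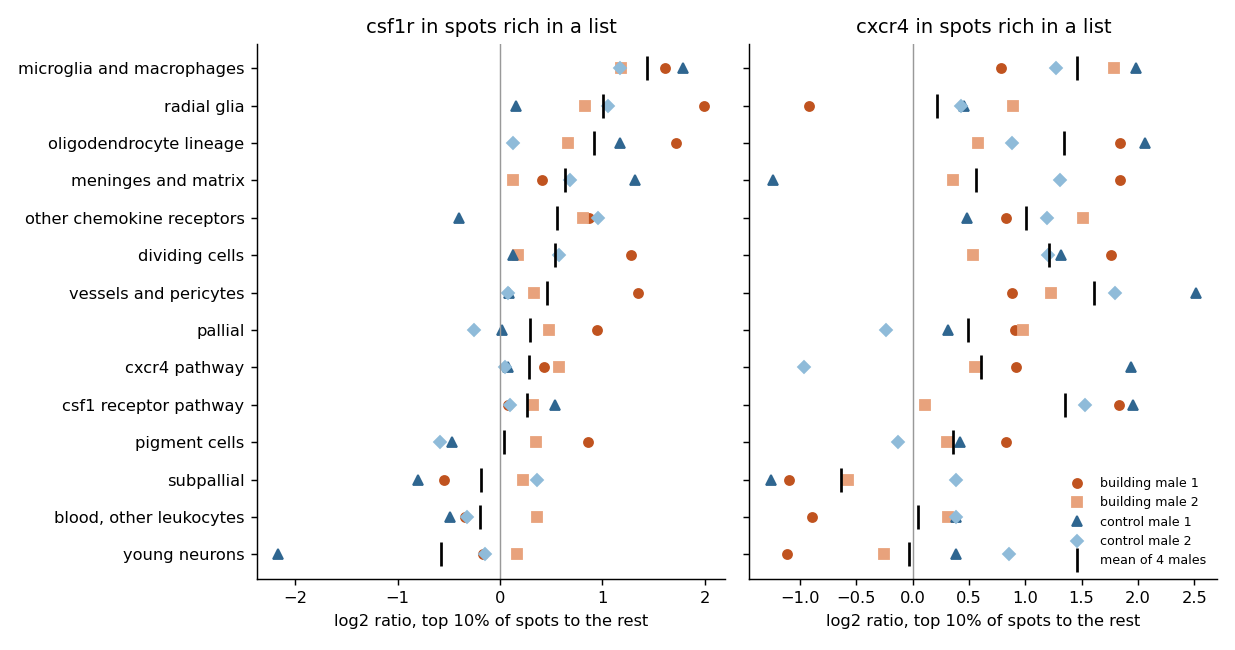
Log2 ratio of the level of csf1r (left) and cxcr4 (right) between the 10% of spots richest in each list, taken within area and depth bin, and the remaining spots. Points are the 4 males and lines their mean. For the microglia list all males lie above 0 for each receptor, with means of 1.44 and 1.46. Building male 1 and control male 1 had 8 and 10 cxcr4 UMIs in all.

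Across 19 spot clusters, built without the receptors and called here by number and leading genes, csf1r was found in all but the 65 near-empty spots of cluster 18 (median 61 UMIs). Among clusters of at least 100 spots it was highest in cluster 2 (LOC112435422, LOC101483962, LOC112435395), at 16.1 CPM, cluster 10 (LOC101477647, LOC101483654, LOC101465896), at 15.3, cluster 4 (led by gal, the galanin gene), at 12.8, and cluster 8 (led by espn), at 12.2. Over males the first 3 averaged 16.3 ± 8.28 (n = 4), 17.2 ± 6.96 (n = 4) and 14.2 ± 4.09 CPM (n = 3), so their order is not set beyond their spread. Cluster 2 spots were shallow, with a median of 1585 UMIs, and 377 of its 696 spots came from control male 1.

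The lowest levels among clusters of at least 100 spots were 3.87 CPM in cluster 12 (led by pde6g), 3.74 in cluster 13 (led by prss35) and 3.13 in cluster 14 (LOC101480240, LOC101474395, LOC106676923). In cluster 10 csf1r was at 23.2, 10.3, 23.3 and 12.2 CPM in the 4 males, on 18, 11, 3 and 7 UMIs. In cluster 14 it was at 2.34, 7.34, 3.20 and 0.883 CPM. The values per male of these clusters did not overlap, but both clusters were taken from the highest and lowest levels named above, and some values rest on few UMIs. The microglia list stood at 1921, 2403, 3294 and 1352 CPM in clusters 2, 10, 4 and 8, ranks 5, 3, 2 and 7 of the 19. In clusters 12, 13 and 14, the lowest in csf1r, it stood at 639, 1132 and 825 CPM, ranks 19, 12 and 16. These list levels are sums of UMIs. Over all spots apoeb and cd74 had 34198 and 19783 UMIs, while grn, the next gene of the list, had 2952, so that sum rests mainly on apoeb and cd74. Other lists moved in these clusters too. Oligodendrocyte lineage genes stood at 2107, 551, 3247 and 499 CPM in clusters 2, 10, 4 and 8, highest of all in cluster 4. Radial glial genes stood at 1591, 2690, 1886 and 2369 CPM in those clusters. Their part in the csf1r levels was not tested.

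A small cluster stood apart. Cluster 19 (igfals, LOC101475401, LOC101483963) had 45 spots, 43 of them from control male 2, and 8 csf1r UMIs, which is 114 CPM with a 95% Poisson interval of 49.1 to 224. It also had the highest level of the microglia list (13820 CPM, 17 of 20 genes with a UMI), of meningeal and matrix genes (1876 CPM) and of vessel genes (995 CPM). Radial glial genes stood at 4591 CPM there, rank 2 of the 19 clusters, below the near-empty cluster 18. The microglia sum of this cluster was not split by gene. The spots of cluster 19 were shallow, with a median of 1212 UMIs, and cxcr4 had 0 UMIs there, which allows less than 52.4 CPM by the interval. These values belong almost wholly to the sections of 1 male.

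cxcr4 varied less clearly over clusters. It was highest in cluster 16 (led by fgf16), at 4.52 CPM on 6 UMIs, then in cluster 6 (led by tmem44) at 3.19, cluster 7 (led by LOC101468238) at 3.17 and cluster 5 (led by LOC101464056) at 2.77. Over males clusters 6, 7 and 5 averaged 2.85 ± 2.04, 3.07 ± 1.20 and 2.87 ± 0.894 CPM (SD, n = 4). It was lowest, among clusters with a cxcr4 UMI, in cluster 3 (led by impg2) at 0.672 and cluster 12 at 0.828. Clusters 15 and 17 and the small clusters 18 and 19 held 0 cxcr4 UMIs. Counting intervals of clusters 6 (1.86 to 5.10) and 3 (0.139 to 1.96), on 17 and 3 UMIs, overlap slightly. In control male 1 both clusters held 0 cxcr4 UMIs. The order of the clusters was not tested.

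**Figure D5:**
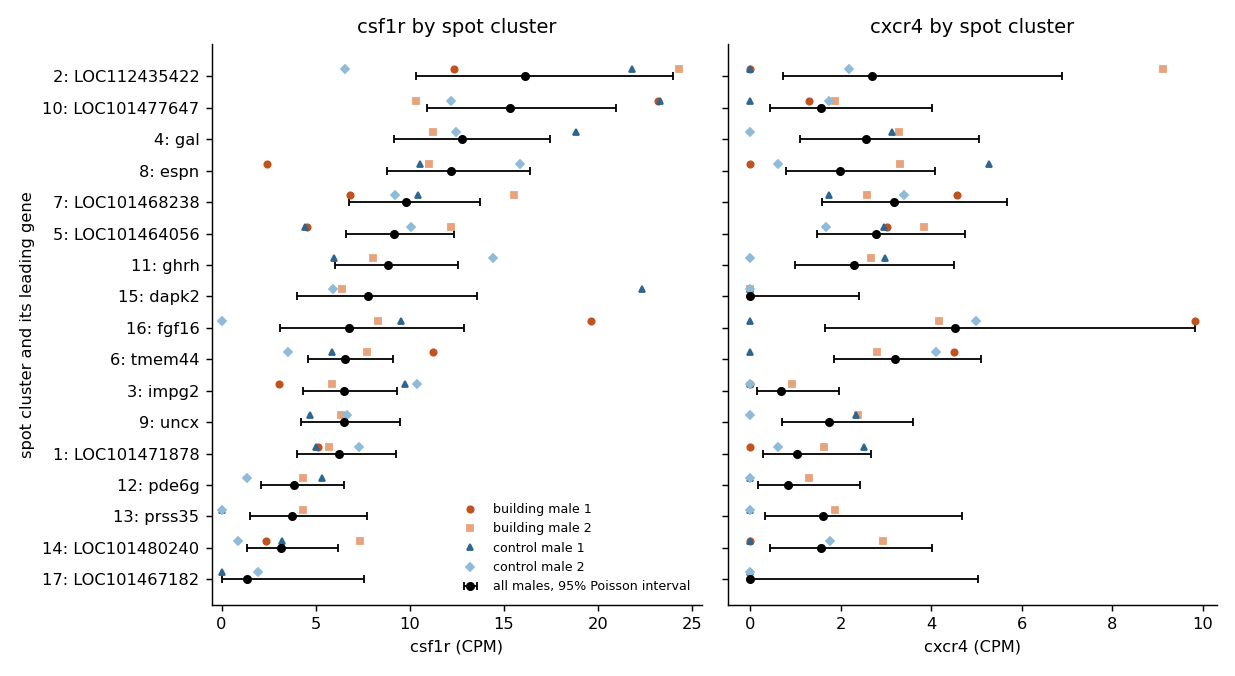
Level (CPM) of csf1r (left) and cxcr4 (right) in the 17 larger spot clusters, each with its leading gene, ordered by csf1r. Black points are all males with a 95% Poisson interval, colored points are males with at least 20 spots in the cluster. csf1r falls from 16.1 in cluster 2 to 1.36 in cluster 17, and cxcr4 lies between 0 and 4.52.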

How the data were processed

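For each capture area the authors deposited a matrix of UMI counts, not normalized, from Space Ranger 1.3.1 and the Maylandia zebra genome. The labels name the molecule as nuclear RNA. Spots with 0 UMIs (4 of 6755) were left out. Counts were summed per male, the replicate, and tested with the quasi-likelihood test of edgeR 4.0.16 after filterByExpr and TMM scaling. p-values were adjusted by Benjamini-Hochberg over all genes tested, and DESeq2 1.42.0 and limma 3.58.1 were alternatives. The tests were checked on simulated sums drawn from a profile shared by all males. Single spots were not simulated, so that check does not cover genes held mainly by a few spots. Regional comparisons and those between spots had the male as a block.

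A spot was pallial or subpallial where the mean z-score of either list exceeded that of the other by over 0.25. Spots were clustered by Leiden (resolution 0.5, 15 neighbors) on 30 components of 3000 variable genes, centred within areas, with the receptors left out. Levels are CPM and carry Poisson or Clopper-Pearson 95% intervals. Log2 ratios between groups of spots within a male had 0.5 UMI added to both counts.

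The members, lists and tests were chosen with earlier results of these data known. List names were matched by symbol or by the number in the study's marker tables. Genes named are both receptors, their relatives and ligands, list members, leading cluster genes, and the 10 highest and 5 lowest called ratios of equal sign in 4 males. Some other called genes were named after their values were seen, among them slc1a2, slc6a11, slc3a2, gpm6b, sparc, selenop, srgn, npff, LOC101463785, LOC101471677, LOC101464395 and LOC106675072. No dataset of single nuclei was analysed here, nor were spot positions.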

Additional observations from a re-analysis of the deposited data

How the results depend on the processing

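Leaving out each male in turn gave building to control log2 ratios of -0.148 to 0.0824 for csf1r and 0.09 to 0.54 for cxcr4, pallial to subpallial ratios of -0.113 to 0.0391 and 0.47 to 0.60 (for cxcr4 only without building male 1 and without control male 1, since it missed the filter in the other such fits), and 0 to 173, 2018 to 3395, 33 to 67 and 0 to 10 called genes in the building, regional, csf1r spot and cxcr4 spot comparisons. The csf1r level ran from 8.40 to 8.88 CPM and its share of spots from 4.79% to 6.04%, and those of cxcr4 from 1.64 to 1.90 CPM and 0.980% to 1.49%. Building against control gave 17 calls with DESeq2, 62 with no filter on low counts and 21 when areas were samples, with a random effect of the male (block). Without the male as a block the regional fit called 1904 genes. The 53 calls in csf1r spots became 19 with DESeq2, 0 without the male as a block, 113 with 3 matched spots, 117 against all other spots, 26 in thinned spots and 21 matched within clusters. The 5 calls in cxcr4 spots became 0, 0, 50, 37, 0 and 7 in that order, and 34 with no filter on low counts. In thinned spots csf1r was at 9.49 CPM and 1.75% of spots, cxcr4 was at 2.59 CPM and 0.494%, and LOC101480579 was at -0.21 on the log2 scale, while the median of all genes moved to -0.21 in csf1r spots and -0.75 in cxcr4 spots. LOC101487483 was at 0.0277 when matched within clusters. At Leiden resolution 1.0 the highest csf1r level of a cluster of at least 100 spots was 24.6 CPM. Of 272 values of 23 named genes under alternatives, 161 kept direction and side of the threshold, 109 kept direction but no longer passed, and 2 reversed. The cause of these differences was not tested. Males of the same replicate number had deviations correlated at 0.229 over 15532 genes, which 2 pairs are too few to read as pairing; with the replicate number as a block the building to control ratios were -0.04 and 0.37, and 0 genes were called. cxcr4 missed the filter in the fits of area C alone and of areas as samples. Dropping the shallow area C of control male 1 changed no call of either receptor and gave 61 and 5 calls in csf1r and cxcr4 spots. With 427 and 102 UMIs, depth limits every statement on single areas and clusters.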

Other observations

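Other lists give further places where the receptors were counted, as descriptions without a test. In the 10% of spots richest in oligodendrocyte lineage genes csf1r was at 12.5 CPM against 7.77 in the rest (log2 ratio 0.92 ± 0.683, SD, n = 4 males) and cxcr4 at 3.28 against 1.82 CPM (1.34 ± 0.719), each higher in 4 of 4 males. In spots rich in dividing cell genes cxcr4 was at 3.18 against 1.83 CPM (1.21 ± 0.506, higher in 4 of 4 males), on 17 UMIs, and csf1r had a log2 ratio of 0.54 ± 0.532. For both lists the highest cxcr4 ratios were in building male 1 and control male 1, with 8 and 10 cxcr4 UMIs in all. They were 1.84 and 2.06 for the oligodendrocyte list, and 1.76 and 1.32 for dividing cells. The cxcr4 means over males lie above the log2 ratios of the CPM printed beside them. Spots rich in other chemokine receptor genes held 3.97 CPM of cxcr4 against 1.74 (1.00 ± 0.447).

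The pigment and blood lists say little about those cells, since the matched pigment genes were mostly sox5 (154 UMIs) and slc45a2 (56 UMIs) and the blood genes mostly gata1 (194 UMIs). In spots rich in these lists the csf1r log2 ratio was 0.04 ± 0.689 and -0.20 ± 0.380 (SD, n = 4 males). With genes of young and migrating neurons it was -0.58 ± 1.07, of which control male 1 had -2.17 and the other males between -0.16 and 0.17.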
